A study of Mus musculus with 6 samples.

Results

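The 49 genes described here encode the proteasome of the mouse, its immune-type variants, its activators and the factors that assemble it. They are all rows of a table of 22320 genes whose symbol is Psma, Psmb, Psmc, Psmd, Psme, Psmf or Psmg with a number, plus Pomp. Names of pseudogenes were left out, and Psmc3ip and Psme2b, whose symbols carry letters after the number, are given apart. The genes were read by sequencing of mRNA from whole testes at postnatal day 1.5, in 3 pools of 4 testes from Arid4bSCKO mice and 3 pools of 4 testes from control mice, all on a mixed C57BL6/J and 129/SvEv background. Arid4bSCKO mice had the genotype Arid4b-/Flox with Amh-cre, and control mice Arid4b+/Flox with Amh-cre. Both groups thus carried the floxed allele and Cre recombinase driven by the promoter of Amh, a gene that Sertoli cells express, while the null allele of Arid4bSCKO mice was present in every cell. ARID4B is a chromatin protein that works with the Sin3 histone deacetylase corepressor.

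The proteasome degrades proteins tagged with ubiquitin. Its barrel, the 20S core, is a stack of rings of alpha and beta subunits, and some of the beta subunits carry the proteolytic sites. A 19S regulator at the end of the barrel recognises the tagged protein, removes the ubiquitin and unfolds the chain with a ring of ATPases. In immune cells and after exposure to interferon gamma, the catalytic subunits beta1, beta2 and beta5 are replaced during assembly by beta1i (Psmb9), beta2i (Psmb10) and beta5i (Psmb8). The product is the immunoproteasome, and the activator PA28, built from Psme1 and Psme2, is induced by the same signal. In the testis, meiotic germ cells use a further alpha subunit encoded by Psma8.

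Levels are the authors' deposited means per group of log2(normalized count + 1). Each difference given is Arid4bSCKO less control, with a 95% interval worked back from the deposited p-value. Values of single pools were not analysed here, so neither the overlap of the groups nor the number of pools that show a direction can be given. Summed normalized counts and the worth of 1 read gave about 17500000 counted reads per Arid4bSCKO library and 18600000 per control library. That worth ranged from 1.28 to 1.45 normalized counts in Arid4bSCKO and from 1.2 to 1.25 in control. The targeted gene Arid4b had a log2 level of 8.68 in Arid4bSCKO testes and 10.19 in control testes, a difference of -1.51 (95% interval -1.82 to -1.21). Whole testes were read, so fewer cells of a type and less RNA per cell cannot be told apart in any result below.

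Of the 48 proteasome genes with a mean log2 level of at least 1, 47 had a positive difference between Arid4bSCKO and control testes, mostly a small one. Of all 19095 genes tested, 45.8% had a positive difference. The median difference of the members was 0.31, or 1.24-fold, beside -0.04 over all genes tested. In a moderated limma test over the whole table (adjusted p below 0.05 by Benjamini-Hochberg), 24 of the 48 were called higher and 0 lower, against 7.37% of all genes called higher and 6.46% called lower. The largest rise was that of Psmd8, a subunit of the 19S lid, and the single negative difference was that of Psmf1, an inhibitor of the core. At an unadjusted deposited p below 0.05, 30 members were higher and 0 lower, where 11.4% of all genes were higher. By the FDR in the authors' deposited table, 0 of 49 members were below 0.05, against 0.26% of all genes.

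**Figure D1:**
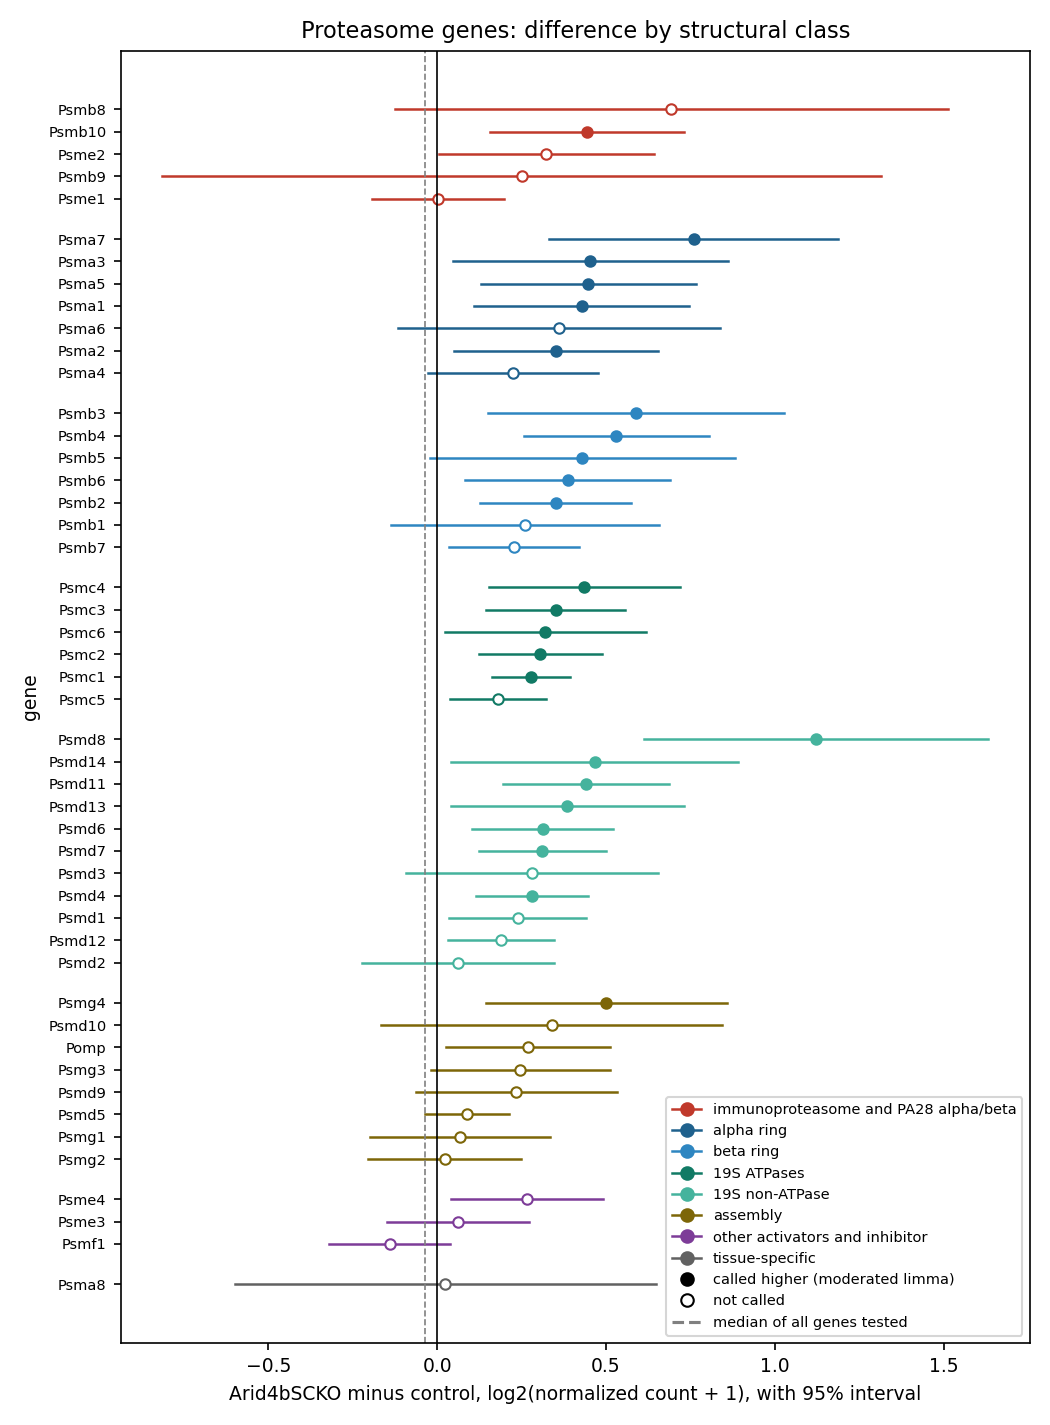
Differences between Arid4bSCKO and control testes for the 48 tested proteasome genes, by structural class (x axis, log2 units; bars, 95% interval; filled points, called higher by the moderated limma test). All points but that of Psmf1, at -0.14, lie right of 0, and Psmd8 stands furthest right at 1.12.

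The alpha subunits form the outer rings and the gate of the core. Of these 7 genes 5 were called higher, against 7.37% of all genes, and the median difference was 0.43. Psma7, which encodes alpha4, had a log2 level of 12.76 in Arid4bSCKO testes and 12.00 in control testes. Its difference was 0.76 (95% interval 0.33 to 1.19), 1.69-fold, with an adjusted p of 0.00222 in the moderated test. Psma3 (alpha7) stood at 12.46 in Arid4bSCKO and 12.01 in control and rose by 0.45 (0.05 to 0.86), and Psma5 (alpha5) at 12.21 in Arid4bSCKO and 11.76 in control, a rise of 0.45 (0.13 to 0.77). Psma1 (alpha6), at 12.16 in Arid4bSCKO and 11.73 in control, rose by 0.43 (0.11 to 0.75). Psma2 (alpha2), at 12.17 in Arid4bSCKO and 11.82 in control, rose by 0.35 (0.05 to 0.65). Psma6 (alpha1), at 12.66 in Arid4bSCKO and 12.30 in control, differed by 0.36 (-0.12 to 0.84) and Psma4 (alpha3) by 0.22 (-0.03 to 0.48), neither of them called. On a scale of normalized counts per kilobase of transcript, Psma7 was the highest of these 7 genes in Arid4bSCKO, at 7565, and Psma6 the highest in control, at 4824.

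Of the constitutive beta subunits, which form the inner rings, 5 of 7 were called higher, against 7.37% of all genes. Their median difference was 0.39. Psmb4, the structural subunit beta7, stood at log2 levels of 12.76 in Arid4bSCKO and 12.23 in control, a difference of 0.53 (95% interval 0.26 to 0.80; adjusted p = 0.0043 in the moderated limma test). Psmb3, the structural subunit beta3, stood at 11.88 in Arid4bSCKO and 11.29 in control and rose by 0.59 (0.15 to 1.03). Of the catalytic subunits, Psmb5 (beta5, chymotrypsin-like activity) had log2 levels of 11.80 in Arid4bSCKO and 11.37 in control. It was called higher at 0.43, although its interval from the deposited p, -0.02 to 0.88, includes 0. Psmb6 (beta1, caspase-like activity) stood at 12.77 in Arid4bSCKO and 12.38 in control and rose by 0.39 (0.08 to 0.69). It was the most abundant 20S gene per length, at 8753 normalized counts per kilobase in Arid4bSCKO and 6693 in control. Psmb7 (beta2, trypsin-like activity) stood at 12.26 in Arid4bSCKO and 12.04 in control, a difference of 0.23 (0.03 to 0.42) that was not called. Psmb2 (beta4), at 11.80 in Arid4bSCKO and 11.45 in control, rose by 0.35 (0.13 to 0.57), and Psmb1 (beta6), at 12.74 in Arid4bSCKO and 12.48 in control, differed by 0.26 (-0.14 to 0.66).

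The ATPases of the 19S base, which unfold the substrate and push it into the core, moved within a narrow range. All 6 had positive differences, from 0.18 for Psmc5 to 0.44 for Psmc4, and 5 were called higher, against 7.37% of all genes. Psmc1, the subunit Rpt2, had the smallest p-value of all members in the authors' deposited table (0.00255, FDR 0.0977). Its log2 levels were 12.10 in Arid4bSCKO and 11.82 in control, a difference of 0.28 with an interval of 0.16 to 0.39. Psmc3, the ATPase with the highest level, stood at 12.54 in Arid4bSCKO and 12.19 in control and rose by 0.35 (0.14 to 0.56). Psmc4 (Rpt3), at 12.15 in Arid4bSCKO and 11.72 in control, rose by 0.44 (0.15 to 0.72). Psmc6 (Rpt4), at 11.98 in Arid4bSCKO and 11.66 in control, rose by 0.32 (0.02 to 0.62), and Psmc2 (Rpt1), at 12.02 in Arid4bSCKO and 11.72 in control, by 0.31 (0.12 to 0.49). The interval of Psmc5 (Rpt6), which was not called, was 0.04 to 0.32.

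Of the 11 non-ATPase subunits of the 19S regulator, 7 were called higher, against 7.37% of all genes, and the median difference was 0.31. Psmd8, which encodes the lid subunit Rpn12, lies on chromosome 7 (29174186 to 29180673, mm10). Its log2 level was 12.78 in Arid4bSCKO and 11.66 in control, a difference of 1.12 (95% interval 0.61 to 1.63) or 2.18-fold, with an adjusted p of 6.01e-04 in the moderated limma test. The next largest difference in this class was that of Psmd14, the metalloprotease Rpn11 that cuts the ubiquitin chain off. It stood at 11.84 in Arid4bSCKO and 11.37 in control and rose by 0.47 (0.04 to 0.89). Psmd11 (Rpn6), at 11.21 in Arid4bSCKO and 10.77 in control, rose by 0.44 (0.19 to 0.69), and Psmd13 (Rpn9), at 11.84 in Arid4bSCKO and 11.45 in control, by 0.39 (0.04 to 0.73). Psmd6 (Rpn7), at 11.48 in Arid4bSCKO and 11.17 in control, rose by 0.31 (0.10 to 0.52). Psmd7 (Rpn8, the inactive partner of Rpn11), at 12.05 in Arid4bSCKO and 11.74 in control, also rose by 0.31 (0.12 to 0.50). Psmd4 (Rpn10, a ubiquitin receptor), at 12.15 in Arid4bSCKO and 11.87 in control, rose by 0.28 (0.11 to 0.45). The scaffold gene Psmd2 (Rpn1), which had the highest level of the class at 13.10 in Arid4bSCKO and 13.04 in control, differed by 0.06 (-0.22 to 0.34). Psmd3 (Rpn3), Psmd1 (Rpn2) and Psmd12 (Rpn5), at 0.28, 0.24 and 0.19, were not called. Without Psmd8 the median of the 41 remaining constitutive members stayed at 0.31.

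Genes whose products build the complex or act on it from outside had smaller differences. Of 8 assembly genes 1 was called, and of 3 other activators and inhibitors 0. For so few genes that is close to the 7.37% of all genes called higher. The called gene was Psmg4, a chaperone of alpha ring assembly, at log2 levels of 8.80 in Arid4bSCKO and 8.30 in control. Its difference was 0.50 (95% interval 0.14 to 0.86; adjusted p = 0.0266 in the moderated limma test). Its partner Psmg3 differed by 0.25 (-0.02 to 0.51), and the chaperone pair Psmg1 and Psmg2 by 0.07 and 0.02. Pomp, the maturation factor with the highest level of the assembly class, stood at 11.29 in Arid4bSCKO and 11.03 in control, a difference of 0.27 (0.03 to 0.51) that was not called. The chaperones of the 19S base, Psmd10, Psmd9 and Psmd5, differed by 0.34, 0.23 and 0.09. Psme4, which encodes the activator PA200 known from spermatogenesis, stood at 11.36 in Arid4bSCKO and 11.09 in control, a difference of 0.27 (0.04 to 0.49). Psme3, the nuclear activator PA28 gamma, stood at 11.53 in Arid4bSCKO and 11.47 in control, a difference of 0.06 (-0.15 to 0.27). Psmf1 had log2 levels of 10.10 in Arid4bSCKO and 10.24 in control, a difference of -0.14 (-0.32 to 0.04).

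The immunoproteasome genes and those of PA28 alpha and beta had a median difference of 0.32, against 0.31 for the 42 constitutive members. Of the 5, 1 was called higher, against 23 of the 42 and 7.37% of all genes. Psmb10 was the one called. It had log2 levels of 8.60 in Arid4bSCKO and 8.15 in control, a difference of 0.44 (95% interval 0.16 to 0.73; adjusted p = 0.0376 in the moderated limma test). Psmb8 had the largest difference of the 5, with log2 levels of 6.63 in Arid4bSCKO and 5.93 in control. Its difference of 0.69 had a wide interval of -0.13 to 1.51 and an adjusted p of 0.0955 in the same test. Psmb9 stood at 5.58 in Arid4bSCKO and 5.33 in control, a difference of 0.25 with an interval of -0.81 to 1.31. A rise of these catalytic genes by more than 1 log2 unit therefore lies within the intervals of both. Of the PA28 genes, Psme2 had log2 levels of 11.20 in Arid4bSCKO and 10.88 in control and a difference of 0.32 (0.0047 to 0.64; adjusted p = 0.0527 in the moderated limma test). Psme1 stood at 11.04 in both groups, a difference of 0.0028 (-0.19 to 0.20). The standard deviation between pools implied by the deposited p was 0.36 for Psmb8 and 0.47 for Psmb9. It was 0.13 for Psmb10, 0.09 for Psme1 and 0.14 for Psme2, with a median of 0.12 over the constitutive members. A rise of a given size was therefore harder to call for Psmb8 and Psmb9.

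Immune subunits were rare beside the subunits they replace. On the scale of normalized counts per kilobase, Psmb8 made up 1.49% of the sum of Psmb8 and Psmb5 in Arid4bSCKO and 1.24% in control. Psmb9 made up 0.393% of the sum of Psmb9 and Psmb6 in Arid4bSCKO and 0.431% in control. Psmb10 was the most frequent of these replacements, at 6.50% of the sum of Psmb10 and Psmb7 in Arid4bSCKO and 5.64% in control. The difference of Psmb8 exceeded that of Psmb5 by 0.26 (SE 0.34), and the difference of Psmb10 exceeded that of Psmb7 by 0.22 (SE 0.12). For Psmb9 less Psmb6 the value was -0.14 (SE 0.40). These standard errors take the genes of a pair to vary independently between pools, which the group means cannot show.

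**Figure D2:**
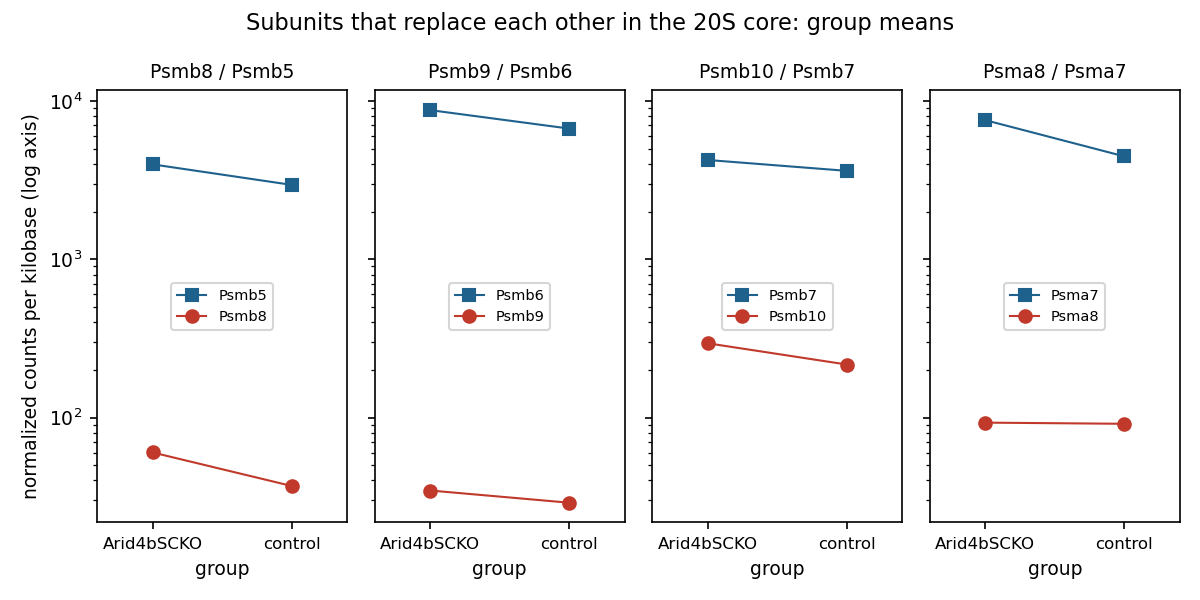
Levels of catalytic subunits and of alpha4 with their replacements, in Arid4bSCKO and control testes (y axis, normalized counts per kilobase of transcript on a log scale; points, group means of 3 pools, without error bars). Each replacement lies below its constitutive partner in both groups, from 294 against 4237 for Psmb10 and Psmb7 to 34.6 against 8753 for Psmb9 and Psmb6 in Arid4bSCKO.

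The subunits of particular tissues were low. Psma8, the alpha4 variant of meiotic germ cells, had log2 levels of 7.30 in Arid4bSCKO and 7.28 in control, a difference of 0.02 (95% interval -0.60 to 0.65). It made up 1.21% of the sum of Psma8 and Psma7 per kilobase in Arid4bSCKO and 2.00% in control, where the difference of Psma8 less that of Psma7 was -0.74 (SE 0.27, taking the genes as independent). Psmb11, the beta5t subunit of the thymus cortex, had mean log2 levels of 1.06 in Arid4bSCKO and 0.39 in control, below the level set for testing. Of the symbols given apart, Psme2b, an intronless relative of Psme2, differed by 0.23 (-0.19 to 0.65). Psme2b had log2 levels of 6.21 in Arid4bSCKO and 5.98 in control, far below those of Psme2. Whether reads of Psme2 and Psme2b were split between them was not tested. Psmc3ip, a meiotic recombination factor and no proteasome subunit, stood at 8.49 in Arid4bSCKO and 8.73 in control, a difference of -0.24 (-0.70 to 0.21).

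The members had shorter transcripts than most genes, and length moved with the difference across the table. The median transcript length was 1476 nucleotides among the tested members and 2831 among all tested genes with a length. Over 17762 genes with a length, the rank correlation between difference and length was -0.21, a description across genes of one comparison. With the trend over length removed, the median of the constitutive members was 0.27 and that of the 5 immune-type genes 0.20. Then 17 of 48 members were called higher and 0 lower, against 8.56% and 4.49% of all tested genes with a length. Of the 24 called before, 15 kept their calls, among them Psmd8 (1.06, adjusted p = 6.60e-04), Psma7 (0.63) and Psmd11 (0.47). Psme4, whose transcript of 6491 nucleotides is the longest of the members, and Psmd1 were added at 0.40 and 0.29. Psmb10 was not called in this setting (0.37, adjusted p = 0.0784 in limma).

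Removing a joint surface over level and length, chosen after the data had been seen, lowered the median of the constitutive members to 0.21 and left 44 of 48 members with a positive difference. It left 7 members called higher, against 7.76% of all tested genes with a length, and 0 called lower, against 4.79%. They were Psma3, Psma7, Psmb3, Psmb4, Psmd8, Psmd11 and Psme4. With neither a trend of the spread on level nor robust fitting in the limma test, 0 members were called and 0.859% of all genes were called higher. Psmd8 came nearest, at an adjusted p of 0.0512. Over all 19095 genes tested, the moderated calls split into 1408 higher and 1233 lower with no trend removed from the differences. Over the 17762 tested genes with a length, they split into 1520 higher and 797 lower with the length trend removed.

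**Figure D3:**
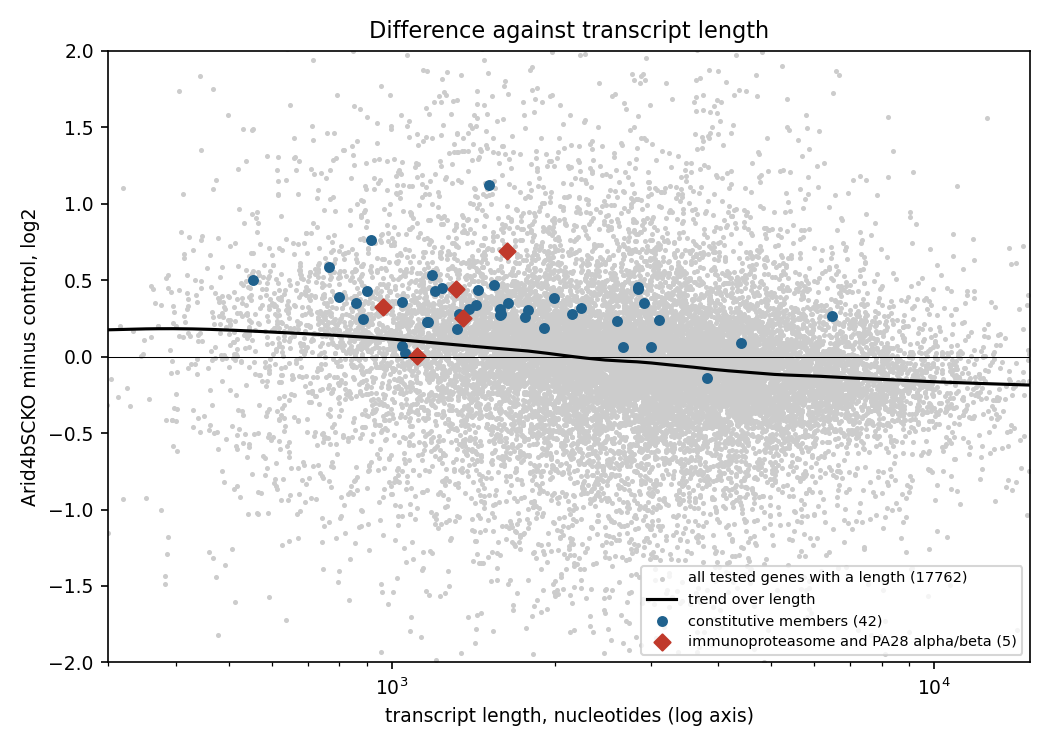
Difference between Arid4bSCKO and control testes (y axis, log2 units, shown from -2 to 2) against transcript length (x axis, nucleotides, log scale) for 17762 tested genes (grey) with their trend (line). Of the 42 constitutive members (blue) and 5 immunoproteasome and PA28 genes (red), 43 of 47 lie above the line.

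**Figure D4:**
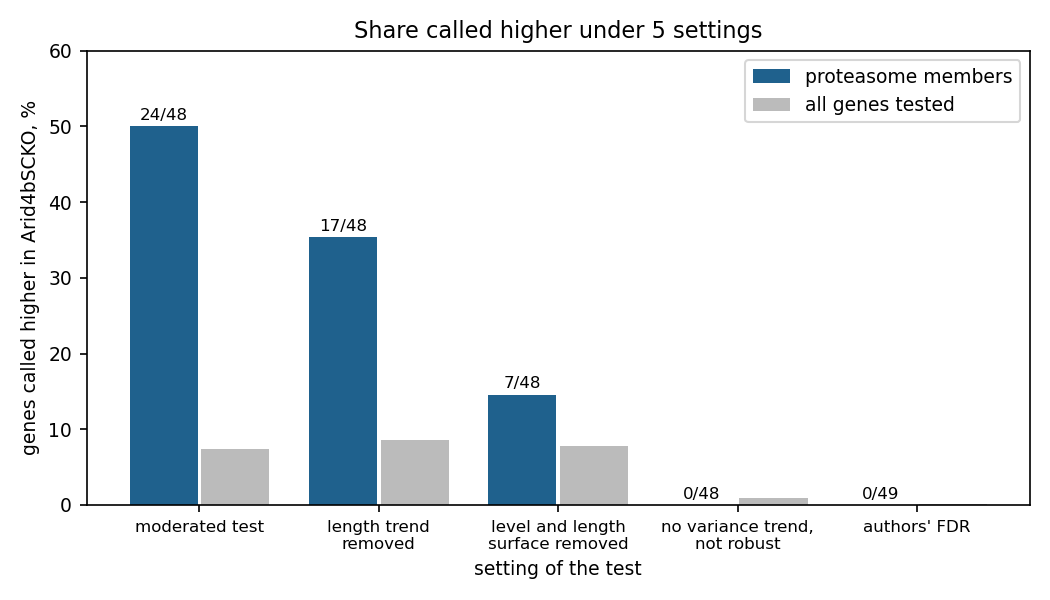
Share of genes called higher in Arid4bSCKO (y axis, percent) among proteasome members (blue, with counts above the bars) and among all genes tested (grey) under 5 settings. The members' share is above that of all genes in the first 3 settings, with 24, 17 and 7 of 48 called, and is 0 in the other 2.

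Factors that control proteasome genes were partly higher. NFE2L1 is the membrane-bound transcription factor that raises proteasome transcription when degradation falls short, and it works with small Maf proteins. Its gene Nfe2l1 differed by 0.12 (95% interval -0.16 to 0.40), and Ddi2 and Ngly1, whose products process it, by -0.30 (-0.63 to 0.03) and -0.01 (-0.36 to 0.34). The list of 14 such genes had a median difference of 0.17, with 5 called higher and 0 called lower, against 7.37% and 6.46% of all genes. With neither a variance trend nor robust fitting in limma, 0 of the 14 were called, where 0.859% of all genes were called higher. Nfe2l3, a relative of Nfe2l1, had log2 levels of 7.73 in Arid4bSCKO and 5.63 in control, a difference of 2.09 (0.96 to 3.22; adjusted p = 0.00151 in the moderated limma test). The small Maf gene Maff had levels of 8.62 in Arid4bSCKO and 6.92 in control, a difference of 1.70 (0.65 to 2.76). Mafg, Syvn1 (a ubiquitin ligase of the endoplasmic reticulum) and Keap1 (which holds NFE2L2 down) rose by 0.40, 0.33 and 0.32. Nfe2l2 itself differed by 0.24 (-0.06 to 0.54).

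Of 15 ubiquitin receptors, shuttles and deubiquitinases, 2 were called higher and 1 lower, close to the shares of all genes (7.37% and 6.46%) for so short a list. Their median difference was 0.11. Txnl1, a thioredoxin bound to the 19S regulator, rose by 0.43 (95% interval 0.16 to 0.70), and Shfm1, which encodes the small lid subunit Sem1, rose by 0.34 (0.04 to 0.63). The shuttle gene Ubqln2 fell by 0.50 on the log2 scale (-0.97 to -0.03). Of 13 genes for ubiquitin and its transfer, 0 were called in the moderated limma test, against the same shares of all genes. At an unadjusted p below 0.05, 4 of the 13 were higher, where 11.4% of all genes were higher. The median difference of this list was 0.12. Ube2d2a and Ubb had the smallest p-values of that list, with differences of 0.12 (0.04 to 0.20) and 0.22 (0.02 to 0.41).

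Antigen presentation by MHC class I, which uses peptides cut by the proteasome, had 4 of 12 genes called higher and 0 lower, against 7.37% and 6.46% of all genes. H2-K1 stood at log2 levels of 10.17 in Arid4bSCKO and 8.84 in control, a difference of 1.33 (95% interval 0.77 to 1.88), and H2-D1 rose by 1.05 (0.65 to 1.44). B2m, the light chain, rose by 0.67 (0.55 to 0.79), and the peptide loading factor Tapbp by 0.33 (0.12 to 0.54). With neither a variance trend nor robust fitting in limma, H2-K1, H2-D1 and B2m kept their calls and Tapbp did not. By the authors' deposited FDR, only B2m of the 12 was below 0.05 (0.0438), against 0.26% of all genes. The peptide transporter genes Tap1 and Tap2, neighbours of Psmb9 and Psmb8 on chromosome 17, differed by 0.28 (-0.08 to 0.63) and 0.30 (0.15 to 0.46) and were not called. Of 13 tested regulators of immunoproteasome genes 2 were called higher, against 7.37% of all genes. They were Irf1 at 0.50 (0.19 to 0.81) and Tnf at 2.23 (0.24 to 4.21). Neither was called without the variance trend and robust fitting. Tnf was a low gene, at levels of 3.41 in Arid4bSCKO and 1.19 in control. Nlrc5, a transactivator of MHC class I genes, differed by -0.28 (-1.29 to 0.73) and was not called. Ifng, the interferon gamma gene, was near 0, with mean log2 levels of 0.40 in Arid4bSCKO and 0.39 in control.

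Some cell type markers shifted in the same comparison. Over all genes, 7.37% were called higher and 6.46% lower. Of 18 leukocyte and macrophage markers 17 were called higher, with a median difference of 0.93, and their summed group means were 9041 normalized counts in Arid4bSCKO and 4289 in control. Their log2 levels ran from 6.02 to 11.49 in Arid4bSCKO and from 4.80 to 9.81 in control, and none was at 0. None of 11 lymphocyte markers was called (0 in the moderated limma test and 0 at an unadjusted p below 0.05), and they summed to 190.3 normalized counts in Arid4bSCKO and 159.4 in control. Of 11 Sertoli cell markers 5 were called lower and 2 higher, with a summed level of 32860 in Arid4bSCKO and 57070 in control. More of the gap between these sums lay in Amh than in the other 10 markers together. Amh was not called, at log2 levels of 12.63 in Arid4bSCKO and 14.25 in control. Of 10 germ cell markers 2 were called lower and 0 higher, and they summed to 7708 in Arid4bSCKO and 10520 in control. Of 10 endothelial markers 1 was called higher, with sums of 8726 in Arid4bSCKO and 9718 in control. A gap nearly as large lay in Cdh5 alone, which was not called, at log2 levels of 11.83 in Arid4bSCKO and 12.16 in control. Of 8 spermatocyte markers 1 was called higher, Stra8. Their log2 levels lay between 4.98 and 8.20 in Arid4bSCKO and between 5.64 and 8.38 in control. For lists this short, 1 call among endothelial and 1 among spermatocyte markers are close to the share of all genes. With neither a variance trend nor robust fitting in limma, 1 leukocyte marker was called higher, where 0.859% of all genes were. In that setting 0 Sertoli and 0 germ cell markers were called lower, while 73 of all 19095 genes were. At an unadjusted p below 0.05, 5 Sertoli and 2 germ cell markers were lower, as were 2426 of the 19095 genes. The part of these shifts in the differences of Psmb8, Psmb9, Psmb10 and the other members was not tested.

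Some members share exonic sequence with a neighbour, and whether the counting used strand is not given in the sources used here. In GENCODE M21 (mm10), the exons of Psmb9 overlap those of Tap1 on the opposite strand over 212 bases, those of Psmb7 overlap Nek6 over 405 bases, and those of Psmb8 overlap the antisense gene Gm20496 over 498 bases. Psmc3, Psmd13 and Psmd1 overlap Slc39a13, Sirt3 and Htr2b on the opposite strand over 215, 342 and 252 bases. The longest overlap was that of Psmd9 with Gm26745, on the opposite strand, over 1849 bases. On the same strand, where strand cannot separate reads, Psmb5 overlaps Mir686 over 109 bases. Psmd1 overlaps Gm21972 over 301 bases and Psmg3 overlaps Gm26938 over 280 bases, also on the same strand. Psmd8 and Psma7, with the largest differences, share no exonic base with another annotated gene.

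Promoter sequences from RefSeq (GRCm38.p6, 250 bases before to 50 after the start) were at hand for 41 of the 49 members. They are printed for 4 genes the results turn on: Psmd8, with the largest rise; Psmb6, the most abundant catalytic subunit; its immune replacement Psmb9, whose window lies head to head with Tap1; and Psmb8. Capitals mark every match, on either strand, to AANNGAAA (the core bound by IRF factors), TGACNNNGC (the antioxidant element of NFE2L1 and NFE2L2) and CCAAT.
Psmd8, chr7:29180624-29180923, minus strand: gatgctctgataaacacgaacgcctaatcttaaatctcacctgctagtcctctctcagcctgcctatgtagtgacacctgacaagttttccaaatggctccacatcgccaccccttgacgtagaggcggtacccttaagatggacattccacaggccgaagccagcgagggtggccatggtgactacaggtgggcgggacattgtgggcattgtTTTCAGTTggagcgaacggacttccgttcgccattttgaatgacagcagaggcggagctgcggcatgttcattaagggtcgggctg
Psmb6, chr11:70525107-70525406, plus strand: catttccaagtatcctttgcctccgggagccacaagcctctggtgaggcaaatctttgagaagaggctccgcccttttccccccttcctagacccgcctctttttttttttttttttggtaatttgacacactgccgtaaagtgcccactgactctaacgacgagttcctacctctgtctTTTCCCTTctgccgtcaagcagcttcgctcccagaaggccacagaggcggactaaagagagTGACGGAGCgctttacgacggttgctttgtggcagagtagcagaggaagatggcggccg
Psmb9, chr17:34187281-34187580, minus strand: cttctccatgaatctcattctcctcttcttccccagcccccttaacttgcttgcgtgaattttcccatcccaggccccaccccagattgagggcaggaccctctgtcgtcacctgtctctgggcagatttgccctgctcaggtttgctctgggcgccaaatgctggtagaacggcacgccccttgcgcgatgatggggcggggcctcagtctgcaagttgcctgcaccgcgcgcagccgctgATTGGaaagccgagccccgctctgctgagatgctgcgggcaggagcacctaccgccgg
Psmb8, chr17:34197945-34198244, plus strand: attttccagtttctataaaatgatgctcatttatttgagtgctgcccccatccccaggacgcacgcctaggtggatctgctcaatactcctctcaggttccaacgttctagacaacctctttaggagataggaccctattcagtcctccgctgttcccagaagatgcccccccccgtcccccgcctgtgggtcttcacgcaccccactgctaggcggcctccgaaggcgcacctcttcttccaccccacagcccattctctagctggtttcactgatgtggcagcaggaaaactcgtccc

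Counted from the annotated start, the window of Psmd8 held an IRF match at -36, the window of Psmb6 an IRF match at -70 and an antioxidant match at -9, and that of Psmb9 a CCAAT match at -8. None of these letters was found in the window of Psmb8. The antioxidant letters were found in 6 of 41 member promoters (14.6%), beside 14.0% of the promoters of 27025 genes. IRF letters were found in 13 of 41 (31.7%), beside 26.7% of all genes. CCAAT was found in 14 of 41 (34.1%), beside 41.1%. Of the 5 immunoproteasome and PA28 alpha/beta genes, 1 held an IRF match (Psme1) and 1 a CCAAT match (Psmb9). A match is a stretch of letters and not a shown binding site.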

How the data were processed

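Stranded mRNA libraries were read from both ends, per the labels' protocols, and the submitters' processing notes list STAR 2.4 and mm10. How reads were counted and normalized is not stated there. Per the deposited column descriptions, the authors' table holds, for 22320 genes, each group's mean log2 normalized count, a log2 fold change of medians, an equal-variance p-value and its FDR. Its lowest level is 0, so levels were read as log2(normalized count + 1).

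Intervals (95%) were worked back from the deposited p-value at 4 residual degrees of freedom. The implied variances of the 19095 genes whose mean level reached 1 were moderated with limma 3.58.1 in R 4.3.3 (squeezeVar, trend over level, robust, median prior df 7.46). Benjamini-Hochberg adjustment was made over all of them. The script was run on simulated data whose spread followed such a trend. That run could not test whether the trend suits these data. Left out were 529 rows recognised as holding a filled-in value. Lengths are those of the longest GENCODE M21 transcript linked to the gene's RefSeq accessions or, where none was linked, to its symbol. They cover 93.0% of tested genes. Folds on this scale understate changes of low genes.

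The members and gene lists were chosen with earlier results of these data known. Given with levels and intervals were the immune-type genes, their counterparts, the called members, and the smallest p and highest level of each class. The pathway genes named without a call other than Ube2d2a and Ubb, and other uncalled members, were added after their values were seen. Since nothing states that the pools stem from different litters, the p-values describe only how these pools vary. Alternatives changed the variance model, the p or FDR used, the filter, the centring, the trends over level and length, filled-in rows (kept, with no filter) and the fold change. One gene of the pathway lists and 1 of the planned promoter motifs are not reported here.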

Additional observations from a re-analysis of the deposited data

How the results depend on the processing

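The count of members called higher, 24, was 23 without a filter on level, 24 with a minimum of 5 normalized counts, 27 with differences centred on the median, 23 with the trend over level removed, 17 with the trend over transcript length removed and 22 with filled-in rows kept. It was 7 with the surface over level and length removed, an alternative chosen after seeing the data. It was 0 with neither a variance trend nor robust fitting, 0 with the deposited p readjusted over the filtered genes, and 0 by the authors' deposited FDR. Of the other pathway genes, 14 were called, and 3 without the variance trend and robust fitting. Members called lower were 0 in each of these settings. The median of the 5 immune-type genes less that of the constitutive members, 0.01, lay between -0.06 and 0.05 across the alternatives run, and its sign turned with the length trend removed. No called member changed sign.

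No paired analysis was possible because only group means were used, and leaving out each replicate was not run for the same reason. The intervals of Psmb9 and Psmb11 include falls and rises alike, and that of Psmb8 includes no change and large rises.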
